A study of Mus musculus with 13 samples.

Results

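The 31 genes examined here encode enzymes of cholesterol and fatty acid synthesis and the proteins that control them. They were taken by name from a table of 43346 genes measured by RNA sequencing in mouse lung fibroblasts, and all 31 were found, each in a single row. Of these, 18 are enzymes of the sterol pathway (7 of the mevalonate arm, 3 from squalene to lanosterol and 8 from lanosterol to cholesterol), 8 make or modify fatty acids, 4 are regulators and 1 is a sterol carrier. The rule takes genes by name and sets no threshold on their values, but the list was drawn up with earlier results of these data known.

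The 13 libraries fall into 4 groups. Sham-treated controls gave 2 libraries, and mice given bleomycin, which damages lung tissue and causes scarring, gave 3 libraries at day 14 and 5 at day 30. These 10 libraries came from Col1a1-GFP mice, which carry green fluorescent protein under the promoter of a collagen gene, at 8 weeks of age. The other 3 libraries came from lungs 14 days after pneumonectomy, in which a lung is taken out and the rest regrows. The design text names the same reporter for all groups, but the labels of the pneumonectomy libraries give only primary sorted fibroblasts, with no strain, age or replicate number in the data columns, so they are called A, B and C. No source states the sorting gate, the sex of the mice, whether animals were pooled, or that each library is a separate animal, so p-values measure the spread between libraries. In such bulk RNA, fewer cells of a type and less RNA per cell cannot be told apart.

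Cholesterol is built from acetyl-CoA through the mevalonate arm to farnesyl diphosphate, then to squalene and lanosterol, and finally to cholesterol. The pathway is controlled by SREBP factors, encoded by Srebf2 (mainly sterol genes) and Srebf1 (mainly fatty acid genes), which lie in the endoplasmic reticulum with the escort protein Scap. When sterols are low, Scap carries the factors to the Golgi, where they are cut and released to the nucleus, and when sterols are high, Insig proteins hold Scap back. Insig1 is itself a target of these factors, and most of the enzymes described here are known targets.

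Sequencing depth, read from the spacing of the low values, was 67.5 and 71.9 M reads in sham, 79.8 to 99.8 M at day 14 after bleomycin, 132.6 to 200.2 M at day 30 and 68.9 to 75.4 M after pneumonectomy. Every member had at least 77.1 estimated reads in every library. Fibroblast markers were high throughout, with Col1a1, a fibrillar collagen chain, at no less than 437 RPKM (reads per kilobase of gene and per M reads of the library, as deposited). Summed over 10 endothelial markers, the level was 290 to 572 RPKM at day 14 after bleomycin, against 21.8 to 26.7 in sham, 15.8 to 18.3 at day 30 and 19.3 to 43.4 after pneumonectomy. For 9 macrophage markers it was 128 to 446 RPKM at day 14 and 196 to 741 at day 30 after bleomycin, against 25.4 to 31.9 in sham and 26.6 to 46.3 after pneumonectomy. For 22 cell cycle genes it was 93.2 to 117 RPKM at day 14 after bleomycin and 14.8 to 21.1 in the other groups. The 10 alveolar type 2 cell markers reached 1293 RPKM in day 30 replicate 3, 40.4 to 94.2 after pneumonectomy and at most 23.6 in the other libraries, with no marker at 0. The 6 adipocyte markers summed to at most 1.65 RPKM in any library. Xist, which marks female cells, lay at 19.9 to 29.2 RPKM at day 30. It lay at no more than 0.022 in the day 14 bleomycin and pneumonectomy libraries. Between day 30 and these libraries, sex and group thus cannot be told apart. The part of these markers in the results below was not tested, also where a marker value is given beside a result.

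Most of the sterol enzymes tested rose at day 14 after bleomycin, while Insig1 and Scd1 fell. Against sham, 10 of the 16 sterol enzymes that could be tested rose and Tm7sf2 fell, the sterol carrier Stard4 rose, no fatty acid gene rose and 5 of 8 fell, and of the 4 regulators Insig1 and Srebf1 fell. Over all 29 tested members this made 11 higher, 8 lower and 10 not called. Mvd and Sqle, counted among the sterol enzymes that rose, reached 1 RPKM in no sham or pneumonectomy library. They were tested only through the bleomycin libraries, where they are higher, so the counts and medians that include them are partly set by the filter. A gene was called at an adjusted p under 0.05 in limma, a linear model over all 13 libraries, and 31.6% of all 12938 genes tested were called higher and 31.5% lower in this comparison. Over all members, the counts of higher and of lower calls thus lie near the background. The members' median log2 difference was 0.11, against -0.00 over all genes tested, while that of the 16 sterol enzymes was 0.41 and that of the 8 fatty acid genes -0.34. The scaling matters here, because on the RPKM as deposited the median gene lay 0.26 higher than in sham. On that scale the members' split was 16 higher and 2 lower, and with upper-quartile scaling it stayed 11 and 8. It was 11 and 4 with no filter on low values, and 14 and 3 without sham replicate 1, so the count of lower calls rests on the scaling, on the filter and on a single sham library.

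**Figure D1:**
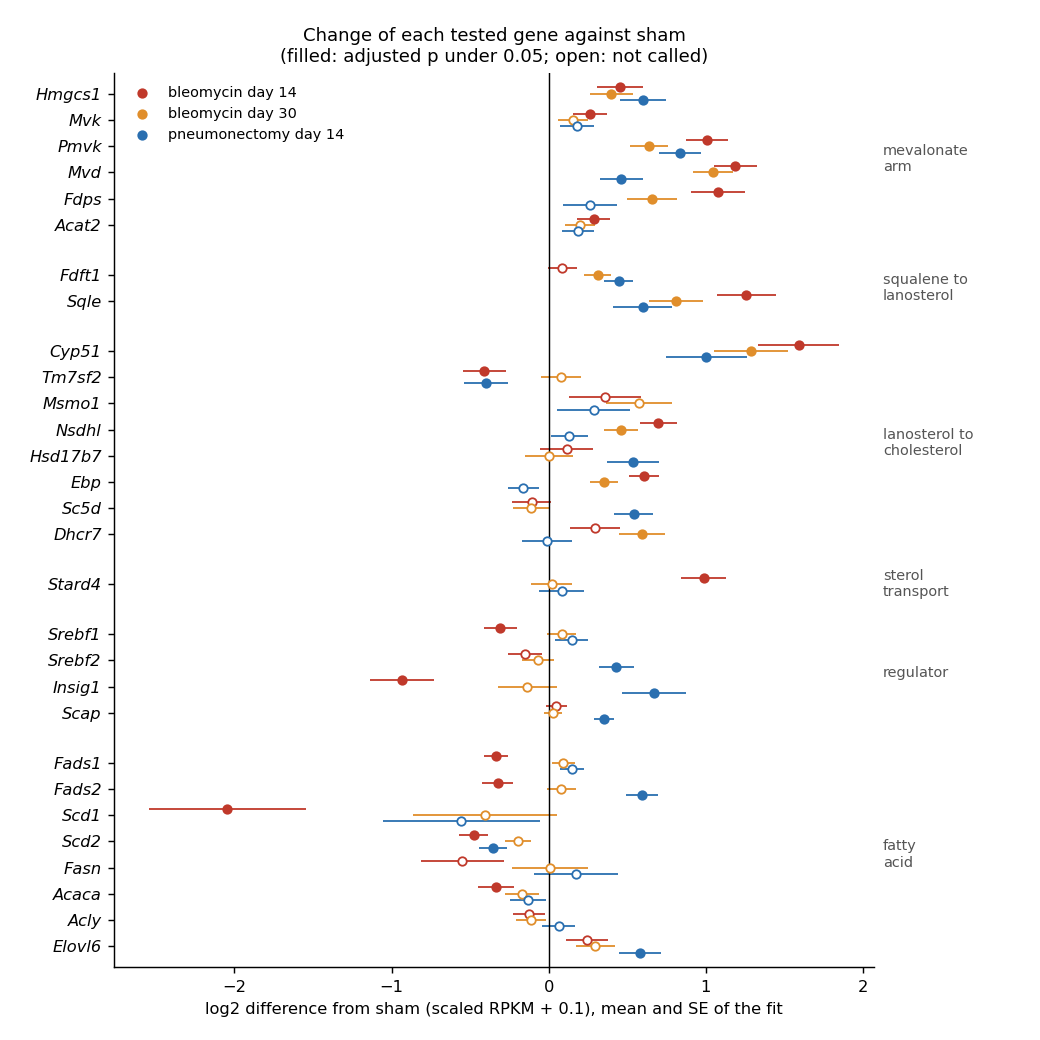
Log2 difference from sham of the 29 tested members, by role, for bleomycin day 14 (red), bleomycin day 30 (orange) and pneumonectomy day 14 (blue); bars are standard errors of the fit, filled points were called. At day 14 after bleomycin, Cyp51 lies farthest to the right at 1.59 and Scd1 farthest to the left at -2.04.

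All 6 tested enzymes of the mevalonate arm rose at day 14 after bleomycin, with a median log2 difference of 0.73. Mvd among them was tested only through the bleomycin libraries, as said above. Fdps, which makes farnesyl diphosphate, the branch point to sterols and to prenyl groups, stood at 4.34 and 2.99 RPKM in sham, at 10.6, 8.41 and 9.07 at day 14 after bleomycin, at 6.74, 5.51, 7.46, 5.93 and 5.68 at day 30, and at 3.85, 3.49 and 3.99 after pneumonectomy. All bleomycin libraries lay above all sham and pneumonectomy libraries, and the day 14 libraries above those of day 30. Fdps rose by 1.08 ± 0.17 (log2 difference and SE, adjusted p = 0.0002, limma) from sham to day 14. Of its 50-base stretches, 26.2% also occur in other annotated genes, mostly Gm43738, so its level is uncertain.

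Mvd, the decarboxylase of the mevalonate arm, rose from 0.866 and 0.576 RPKM in sham to 2.02, 2.17 and 2.10 at day 14 (log2 difference 1.19 ± 0.14). Pmvk, the kinase before it, rose from 1.45 and 1.22 RPKM to 3.14, 3.39 and 3.51 (1.01 ± 0.13). Neither shares a 50-base stretch with another gene, and for both the groups did not overlap. Smaller increases were called for Hmgcs1, which makes HMG-CoA (0.45 ± 0.15), for Acat2, the thiolase at the head of the arm (0.29 ± 0.10), and for Mvk, mevalonate kinase (0.26 ± 0.11). These 3 calls were lost without sham replicate 2 (log2 differences 0.20, 0.16 and 0.12), and Acat2 shares 39.1% of its 50-base stretches with Acat3.

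From squalene synthesis onward the picture differed from gene to gene. Sqle, squalene epoxidase and a rate-limiting step, stood at 0.956 and 0.522 RPKM in sham, at 2.52, 2.01 and 2.14 at day 14 after bleomycin, at 1.30 to 1.56 at day 30 and at 0.967, 0.969 and 0.990 after pneumonectomy. It rose by 1.26 ± 0.19 from sham to day 14. Fdft1, squalene synthase, was not called (0.09 ± 0.09), and 17.2% of its 50-base stretches are shared with the overlapping gene Ctsb on the other strand, which lay at 72.9 to 112 RPKM. Lss, lanosterol synthase, and Idi1, the isomerase of the mevalonate arm, lay below the filter of 1 RPKM in 2 libraries and were not tested: their levels were 0.353 to 0.661 RPKM and 0.409 to 0.878 RPKM. Mvd and Sqle passed the filter through the bleomycin groups, Elovl6 was below 1 RPKM in both sham libraries and Tm7sf2 in all pneumonectomy libraries.

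Cyp51, the lanosterol demethylase, had the largest increase of the members. It stood at 2.33 and 0.951 RPKM in sham, at 5.79, 5.53 and 5.72 at day 14 after bleomycin, at 4.09, 4.11, 3.45, 4.63 and 4.36 at day 30, and at 2.79, 2.85 and 2.43 after pneumonectomy. The groups did not overlap, and the order was bleomycin day 14, bleomycin day 30, pneumonectomy, sham. The increase from sham to day 14 was 1.59 ± 0.26 (adjusted p = 0.00022), and 0.98 (adjusted p = 0.00025) without sham replicate 2, the lower of the pair. Nsdhl, a dehydrogenase in the removal of methyl groups from lanosterol, rose by 0.70 ± 0.12, from 1.41 and 1.06 RPKM to 2.46, 2.34 and 2.60, and Ebp, the sterol isomerase, by 0.60 ± 0.10, from 3.95 and 3.31 to 6.57, 6.67 and 6.88. Both genes are X-linked. Xist was 15.9 and 0.0147 RPKM in the sham replicates, and the Y-linked Ddx3y lay at 2.14 to 11.4 RPKM there. The part of sex in these rises was not tested.

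Not every late enzyme followed. Msmo1, the methylsterol oxidase, Dhcr7, the last reductase of the pathway, Hsd17b7 and Sc5d gave log2 differences of 0.36, 0.29, 0.11 and -0.11 and were not called. Tm7sf2, a sterol reductase that shares its step with a lamin receptor, fell by 0.41 ± 0.14, a call lost in 6 of the alternatives, among them the scale as deposited and a fit without sham replicate 1. Stard4, a soluble carrier of cholesterol and a known SREBP target, stood at 1.40 and 0.966 RPKM in sham, at 2.62, 2.99 and 3.11 at day 14, at 1.48, 1.22, 1.25, 1.31 and 1.15 at day 30, and at 1.17, 1.00 and 1.06 after pneumonectomy. Only the day 14 bleomycin libraries were high, and the other groups overlapped. Stard4 rose by 0.99 ± 0.14 (adjusted p = 9e-05) and shares no 50-base stretch with another gene.

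**Figure D2:**
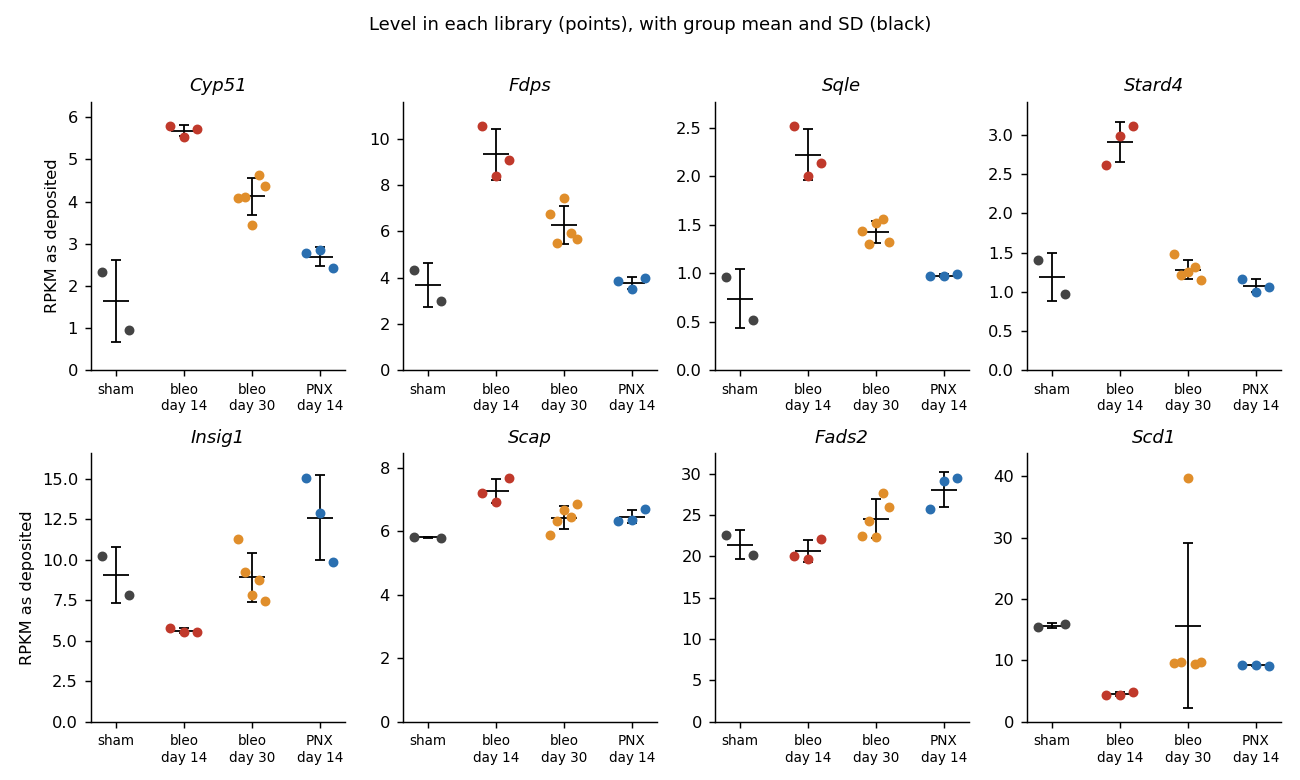
RPKM as deposited of 8 members in each of the 13 libraries (points), with group means and SD (black); bleo is bleomycin and PNX pneumonectomy, and each axis starts at 0. The 3 day 14 bleomycin libraries lie highest for Cyp51, Fdps, Sqle and Stard4 and lowest for Insig1 and Scd1.

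Promoter sequence was available for 24 of the 31 members, as 300-base windows from 250 bases before to 50 after the start in RefSeq (GRCm38.p6). These stretches are shown because the sterol genes that rose together can be compared base by base with Insig1, which fell beside them. The 4 motifs searched on both strands were TCACNCCAC, the core of a sterol regulatory element, CACGTG, an E-box, CCAAT, the NF-Y box, and GGGCGG, the GC box bound by Sp1. No searched motif contains another. Capitals mark matches to any of these, on either strand. The stretches of Hmgcs1 (chr13:119690101-119690350, plus strand), Pmvk (chr3:89454291-89454540, plus strand) and Mvd (chr8:122443423-122443672, minus strand) run from 250 bases to 1 base before the start, and those of Cyp51 (chr5:4104747-4104947, minus strand) and Insig1 (chr5:28071162-28071362, plus strand) end 50 bases before it, where an annotated exon begins.
Hmgcs1: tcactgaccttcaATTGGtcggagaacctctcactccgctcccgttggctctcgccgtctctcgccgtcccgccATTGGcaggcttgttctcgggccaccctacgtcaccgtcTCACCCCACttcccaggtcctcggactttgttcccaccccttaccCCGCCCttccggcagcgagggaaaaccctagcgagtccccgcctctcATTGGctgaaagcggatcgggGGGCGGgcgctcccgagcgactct
Pmvk: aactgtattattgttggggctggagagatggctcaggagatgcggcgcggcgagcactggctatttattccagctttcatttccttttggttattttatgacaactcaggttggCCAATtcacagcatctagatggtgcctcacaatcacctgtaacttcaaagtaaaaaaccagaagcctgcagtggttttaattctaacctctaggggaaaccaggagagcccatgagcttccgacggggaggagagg
Mvd: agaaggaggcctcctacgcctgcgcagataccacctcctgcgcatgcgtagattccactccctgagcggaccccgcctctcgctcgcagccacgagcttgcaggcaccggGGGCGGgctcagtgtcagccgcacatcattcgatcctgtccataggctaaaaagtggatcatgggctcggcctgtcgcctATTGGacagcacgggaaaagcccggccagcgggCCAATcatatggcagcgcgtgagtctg
Cyp51: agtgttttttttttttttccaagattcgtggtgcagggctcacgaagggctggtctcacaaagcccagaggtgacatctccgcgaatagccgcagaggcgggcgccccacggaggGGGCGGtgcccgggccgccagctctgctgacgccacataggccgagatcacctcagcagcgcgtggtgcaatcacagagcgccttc
Insig1: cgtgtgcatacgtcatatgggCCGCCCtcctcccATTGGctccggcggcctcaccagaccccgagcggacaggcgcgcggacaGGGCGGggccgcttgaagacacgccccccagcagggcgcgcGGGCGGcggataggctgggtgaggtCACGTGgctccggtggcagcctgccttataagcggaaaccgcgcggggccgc
CCAAT occurred in the windows of 14 of the 15 sterol enzymes with a window, Acat2 being the exception, in 3 of the 4 regulators and in 2 of the 5 fatty acid genes. Over the members this is 79.2%, against 41.1% of all 27025 genes with a window and 42.3% of 17492 coding genes. In the Cyp51 window the CCAAT lies from -29 to -25, outside the stretch shown. GGGCGG occurred in 83.3% of the members, against 38.2% of all genes and 49.2% of coding genes. CACGTG occurred in Hsd17b7, Sc5d, Dhcr7, Insig1 and Scap, 20.8% of the members against 8.09% of all genes. TCACNCCAC occurred only in Hmgcs1, at -137 to -129, 4.17% of the members against 1.44% of all genes. Insig1 carried CCAAT as well as GGGCGG letters, as did most but not all of the enzymes that rose. The Pmvk window lacks the GGGCGG letters, and Fdps and Sqle have no window. Any match is only a description of these windows.

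The regulators did not follow the enzymes. Insig1, which holds back the release of SREBP, stood at 10.3 and 7.84 RPKM in sham, at 5.81, 5.52 and 5.53 at day 14 after bleomycin, at 11.3, 9.26, 7.85, 8.77 and 7.48 at day 30, and at 15.1, 12.9 and 9.84 after pneumonectomy. The day 14 bleomycin libraries were the lowest of all 13 and agreed closely. Insig1 fell by 0.93 ± 0.20 from sham (adjusted p = 0.0019), on every scaling tried. Srebf1 stood at 7.93 and 5.92 RPKM in sham, at 6.45, 6.57 and 6.99 at day 14, at 7.73, 7.63, 8.10, 8.28 and 7.60 at day 30, and at 6.20, 6.34 and 7.28 after pneumonectomy. Its fall of 0.31 ± 0.10 (adjusted p = 0.022) was lost in 8 alternatives, with log2 differences from -0.33 to -0.04, and its libraries overlapped with sham. Srebf2 stood at 10.8 and 7.62 RPKM in sham and at 9.93, 9.72 and 9.90 at day 14 after bleomycin, and Scap at 5.83 and 5.81 and at 7.21, 6.93 and 7.69. Neither was called (log2 differences -0.15 and 0.05), although Scap was higher on the scale as deposited (0.32). The mRNA of these factors does not measure their cleavage.

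Fatty acid genes lay level or lower at day 14 after bleomycin. Scd1, the stearoyl-CoA desaturase that makes oleate, stood at 15.4 and 15.9 RPKM in sham, at 4.37, 4.30 and 4.84 at day 14 after bleomycin, at 9.55, 9.75, 39.7, 9.48 and 9.75 at day 30, and at 9.28, 9.25 and 9.12 after pneumonectomy. Apart from day 30 replicate 3 the groups varied little inside and did not overlap, with day 30 and pneumonectomy nearest to each other. Scd1 fell by 2.04 ± 0.50 (adjusted p = 0.0037), and in a fit of these groups alone by 2.07 (adjusted p = 0.00017). The related Scd2 fell by 0.48 ± 0.09, from 22.8 and 23.1 RPKM to 20.0, 19.3 and 20.4, a call lost on the scale as deposited (-0.21). Calls of lower Fads1 and Fads2, the desaturases of polyunsaturated fatty acids (-0.33 and -0.32), and of Acaca, acetyl-CoA carboxylase (-0.34), were lost on the scale as deposited (-0.06, -0.05 and -0.09). Without sham replicate 1 all of these calls were lost too (-0.21, -0.22 and -0.32). The Acaca call was also lost without sham replicate 2 (-0.34), and with no filter both Fads2 (-0.23) and Acaca (-0.25) were not called. Acaca shares 29.2% of its 50-base stretches with Gm5182. Fasn, fatty acid synthase, Acly, ATP citrate lyase, and the elongase Elovl6 were not called (-0.55, -0.12 and 0.25), though Fasn was called lower in the fit of these groups alone (-0.57, adjusted p = 0.011).

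Ratios formed within a library do not depend on any scaling between libraries, and differences of mean log2(RPKM + 0.1) depend on it only through the 0.1 added. The mean log2(RPKM + 0.1) of the 18 sterol enzymes minus that of the 8 fatty acid genes was -2.05 and -2.41 in sham. It was -1.25, -1.19 and -1.25 at day 14 after bleomycin, -1.56, -1.70, -2.07, -1.69 and -1.74 at day 30, and -1.89, -1.94 and -2.05 after pneumonectomy. The sterol arm was thus nearest to the fatty acid genes at day 14 after bleomycin, with no overlap with another group. Without Scd1 and Fasn, day 30 replicate 3 moved from -2.07 to -1.72, in among the other day 30 libraries (-1.77 to -1.57), and day 14 bleomycin still stood apart at -1.42 to -1.37. The ratio of Cyp51 to Insig1 RPKM was 0.227 and 0.121 in sham, 0.996 to 1.04 at day 14 after bleomycin, 0.362 to 0.583 at day 30 and 0.185 to 0.246 after pneumonectomy. These are descriptions without a test, formed after the members' values were known.

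**Figure D3:**
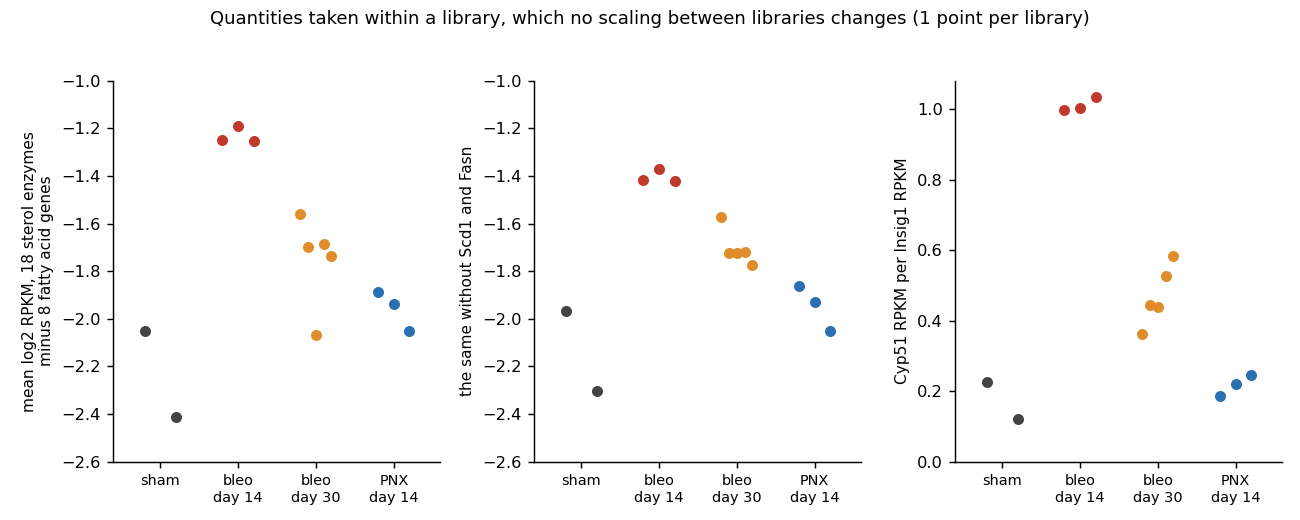
Left and middle, mean log2 RPKM of the 18 sterol enzymes minus that of the fatty acid genes in each library, with and without Scd1 and Fasn; right, RPKM of Cyp51 per RPKM of Insig1. Each point is a library; the 3 day 14 bleomycin points lie highest in each panel, and day 30 replicate 3 is the low orange point on the left at -2.07.

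After pneumonectomy the pattern against sham was different for the regulators. Of 29 members 13 rose, 2 fell and 14 were not called, against 21.5% of all genes higher and 20.8% lower, with a median log2 difference of 0.26 against -0.01 over all genes. On the RPKM as deposited, where the median gene shifted by -0.21, the split was 7 higher and 4 lower. Sterol enzymes gave 8 higher and 1 lower of 16, regulators 3 higher of 4 and fatty acid genes 2 higher and 1 lower of 8. Insig1 rose by 0.67 ± 0.20 (adjusted p = 0.021), Srebf2 by 0.43 ± 0.11 (adjusted p = 0.0091) and Scap by 0.35 ± 0.07 (adjusted p = 0.0014). On the scale as deposited these 3 were not called (0.46, 0.23 and 0.15), and without sham replicate 2 the calls of Insig1 and Srebf2 were lost (0.47 and 0.18). Insig1 was also not called without pneumonectomy replicate A or B (0.52 and 0.63).

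Among the enzymes after pneumonectomy, Cyp51 rose by 1.00 ± 0.26, Pmvk by 0.83 ± 0.13, Hmgcs1 by 0.60 ± 0.15, Sqle by 0.60 ± 0.19, Sc5d by 0.54 ± 0.12, Hsd17b7 by 0.54 ± 0.17, Mvd by 0.46 ± 0.14 and Fdft1 by 0.45 ± 0.09, while Tm7sf2 fell by 0.40 ± 0.14. Several of these differences rest on sham replicate 2: without it Cyp51 was 0.39, Hmgcs1 0.35, Sqle 0.21, Mvd 0.20 and Fdft1 0.29 above sham. Without sham replicate 1 Cyp51 was 1.63, Sqle 1.00 and Mvd 0.74 above it. The Hsd17b7 call was lost as deposited (0.34), with upper-quartile scaling (0.43), with these groups alone (0.54) and without pneumonectomy replicate B (0.36). The Tm7sf2 call was lost with no filter (-0.40), with these groups alone (-0.39) and without pneumonectomy replicate B or C (-0.31 and -0.40). Tm7sf2 reached 1 RPKM in no pneumonectomy library and was tested through the other groups, where it is higher. Pmvk stood at 2.23, 2.25 and 1.90 RPKM, above both sham libraries. Mvd and Sqle, counted among the enzymes that rose, reached 1 RPKM in no sham or pneumonectomy library. They were tested only through the bleomycin libraries, and as deposited neither was called (0.27 and 0.41). Mvd stood at 0.941, 0.836 and 0.857 RPKM, against 0.866 and 0.576 in sham, so its libraries overlapped with sham. Fads2 rose by 0.59 ± 0.10, at 25.7, 29.1 and 29.5 RPKM against 22.6 and 20.2 in sham, Elovl6 rose by 0.58 ± 0.14 and Scd2 fell by 0.35 ± 0.09, to 15.6, 14.1 and 17.2 RPKM. Scd1 lay lower than in sham in all 3 libraries but was not called (-0.56 ± 0.50). In a fit of these groups alone, without the day 30 libraries, it was called lower (-0.55, adjusted p = 0.0073). The sham libraries differed from each other in the same genes, and also in Xist (0.0147 to 15.9 RPKM) and the Y-linked Ddx3y (2.14 to 11.4 RPKM). Leaving either library out thus also changes these levels in the control, and the part of sex was not tested. Sham replicate 1 was higher than sham replicate 2 in 17 of 18 sterol enzymes, by 1.35-fold in the median and 2.45-fold for Cyp51, but the 8 fatty acid genes differed by 0.965-fold to 1.16-fold. Which members were called against sham depended on the sham library left out. Pmvk, Fdft1, Sc5d and Fads2 were called in every alternative that tested them.

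The direct comparison of both injuries at day 14 does not use the sham means. The sham libraries still entered its filter, its scaling and its estimate of spread. Of 29 members 7 were higher after bleomycin, 12 were lower and 10 were not called, against 35.7% of all genes higher and 35.1% lower. This split depends on the scale more than any other: on the RPKM as deposited, where the median gene lay 0.47 higher after bleomycin, it was 17 higher and 2 lower, and with upper-quartile scaling 9 and 10. In a fit of these groups alone, without sham, it was 7 and 11, among 8445 genes called, 4178 of them higher. On both the main scale and the scale as deposited, Stard4, Fdps, Ebp, Mvd, Sqle, Cyp51 and Nsdhl were higher after bleomycin, and Insig1 and Fads2 were lower. Of these, Mvd and Sqle passed the filter only through the bleomycin libraries. Stard4 was higher by 0.90 ± 0.13 on the main scale and by 1.35 as deposited, Fdps by 0.81 ± 0.15 and 1.28, and Ebp by 0.77 ± 0.09 and 1.23. Nsdhl was higher by 0.57 ± 0.11 on the main scale. Xist was at most 0.022 RPKM in all 6 libraries of this comparison. The Y-linked Ddx3y lay at 9.91 to 10.5 RPKM after bleomycin and at 15.9 to 23.8 after pneumonectomy. Every library of both groups thus held Ddx3y and almost no Xist. The part of sex in the levels of the X-linked Ebp and Nsdhl was not tested. Cyp51 was higher by 0.59 ± 0.23 (adjusted p = 0.037), a call lost when any library of either group was left out (adjusted p from 0.0541 to 0.111).

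Insig1 was lower after bleomycin than after pneumonectomy by 1.60 ± 0.18 (adjusted p = 1.1e-05) and by 1.13 on the scale as deposited, and its libraries did not overlap, at 5.52 to 5.81 against 9.84 to 15.1 RPKM. Fads2 was lower by 0.92 ± 0.09 (adjusted p = 3e-06) and by 0.44 as deposited. All 4 regulators were called lower on the main scale, Srebf2 by 0.58 ± 0.10, Srebf1 by 0.45 ± 0.09 and Scap by 0.30 ± 0.06. As deposited, Srebf1 and Srebf2 were not called (0.02 and -0.11) and Scap was called higher (0.17), so the direction of Srebf1 and Scap turns with the scale. Of the fatty acid genes, Scd1 (-1.49 ± 0.45), Fasn (-0.72 ± 0.24), Fads1 (-0.48 ± 0.07) and Elovl6 (-0.34 ± 0.12) were lower on the main scale and not called as deposited (-1.02, -0.26, -0.01 and 0.11). Fdft1 (-0.36), Hsd17b7 (-0.42) and Sc5d (-0.65) were called lower among the sterol enzymes, and not as deposited (0.11, 0.03 and -0.18). Hsd17b7 was not called with upper-quartile scaling either (-0.31).

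**Figure D4:**
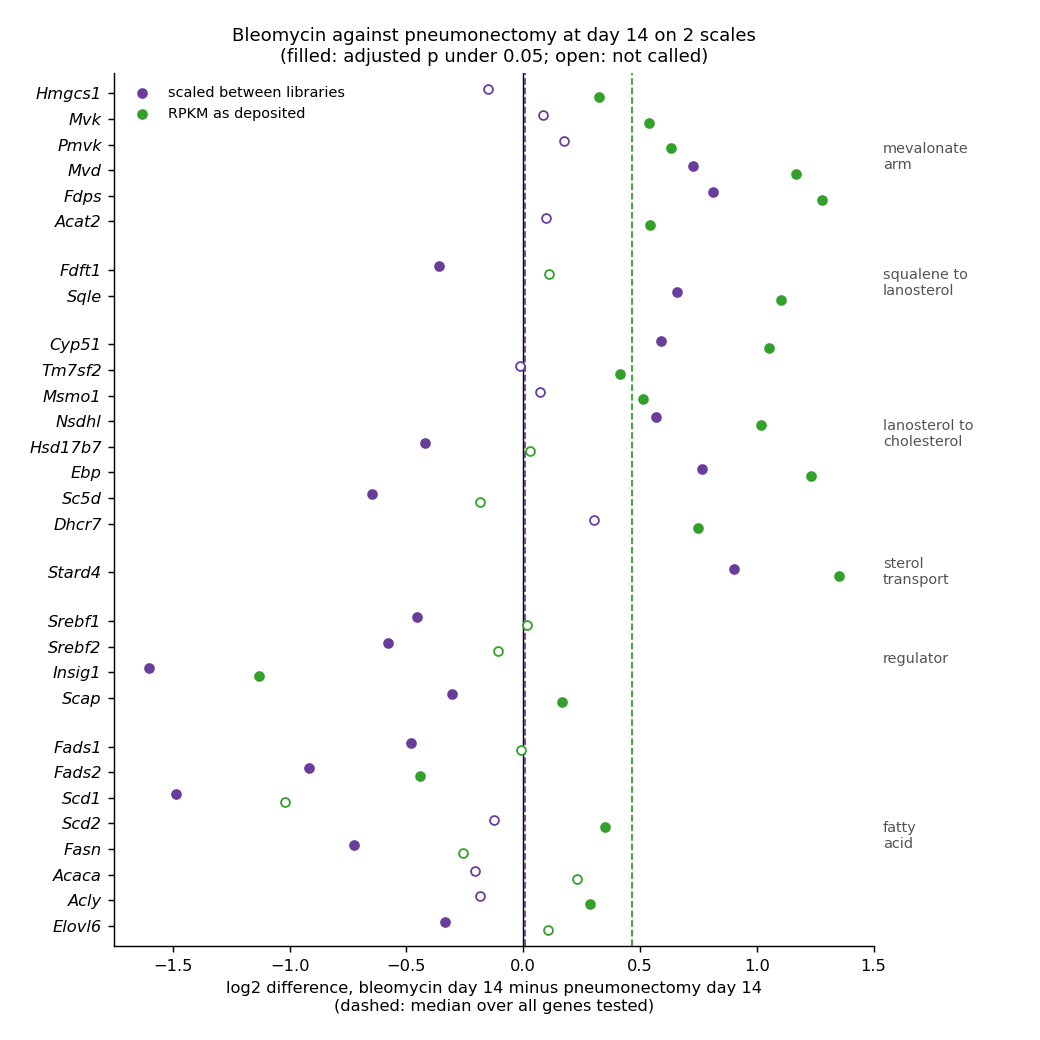
Log2 difference of bleomycin day 14 minus pneumonectomy day 14 for the 29 tested members, with libraries scaled to each other (purple) and on RPKM as deposited (green); dashed lines are the medians of all genes, filled points were called. Each green point lies to the right of its purple point; Insig1 (-1.60 and -1.13) and Fads2 (-0.92 and -0.44) are called lower on both, and Stard4 (0.90 and 1.35) is called higher on both.

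Between day 14 and day 30 after bleomycin the change partly went the other way. Of 29 members 9 rose, 6 fell and 14 were not called, against 31.2% of all genes higher and 28.3% lower, with a median of 0.01 against 0.02 over all genes. On the scale as deposited, with the median gene at -0.13, the split was 6 higher and 10 lower. Stard4 fell by 0.97 ± 0.11 (adjusted p = 2e-05), Sqle by 0.45 ± 0.15, Fdps by 0.42 ± 0.14, Pmvk by 0.37 ± 0.11, Ebp by 0.26 ± 0.08 and Nsdhl by 0.24 ± 0.09. The rises of Scd2, Fdft1 and Fasn were not called as deposited (0.13, 0.07 and 0.41). Without day 14 replicate 1 the calls of Sqle, Fdps and Nsdhl were lost (-0.37, -0.33 and -0.24). Insig1 rose by 0.80 ± 0.16 (adjusted p = 0.0014), Srebf1 by 0.39 ± 0.08, Fads1 by 0.43 ± 0.06, Fads2 by 0.40 ± 0.08, Scd2 by 0.28 ± 0.07, Tm7sf2 by 0.49 ± 0.11 and Fdft1 by 0.23 ± 0.07. For Stard4, Pmvk, Ebp, Insig1, Srebf1, Fads1, Fads2 and Scd1 the call held in every alternative that tested them. Cyp51 (-0.30 ± 0.21), Mvd (-0.14 ± 0.11) and Hmgcs1 (-0.05 ± 0.12) were not called.

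The size of the Scd1 and Fasn changes at day 30 depended on a single library. Day 30 replicate 3 held Scd1 at 39.7 RPKM, against 9.48 to 9.75 in the other 4 libraries, and Fasn at 9.84 RPKM, against 4.54 to 5.33. In the same library Sftpc, a surfactant protein of alveolar type 2 cells, stood at 970 RPKM and Sftpb at 123 RPKM, and the summed alveolar type 2 markers at 1293 RPKM against 10.02 to 18.9 in the other day 30 libraries. The summed macrophage markers were also highest in that library, at 741 RPKM against 196 to 520 in the other day 30 libraries. Adipoq and Lep, which define adipocytes, were at most 0.246 and 0.00149 RPKM at day 30. The part of any of these cell types in the Scd1 and Fasn levels of replicate 3 was not tested. The rise of Scd1 from day 14 to day 30 was 1.64 ± 0.40 with this library and 1.23 without it (adjusted p = 0.0041 and 1.2e-07), and that of Fasn was 0.56 ± 0.21 and 0.35 (adjusted p = 0.041 and 0.0039). The Fasn rise was not called in 8 alternatives, among them no filter, these groups alone and leaving out any day 14 library (adjusted p from 0.0553 to 0.161). Against sham, Scd1 at day 30 was not called with it (-0.40 ± 0.46) and was called lower without it (-0.81, adjusted p = 8.4e-05). By Dixon's criterion no sterol enzyme stood apart in that library: Cyp51 was the lowest of the 5 at 3.45 RPKM and Fdps the highest at 7.46.

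**Figure D5:**
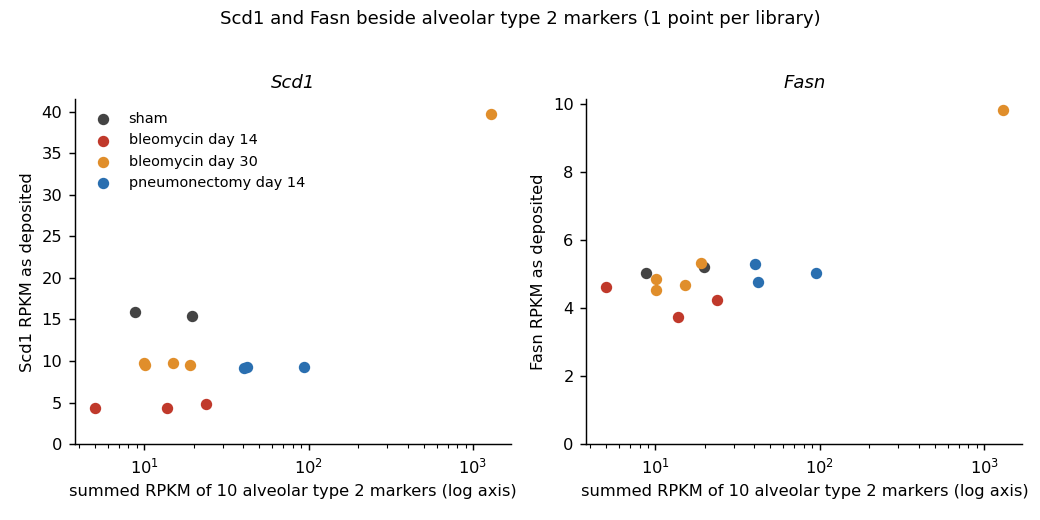
RPKM as deposited of Scd1 (left) and Fasn (right) in each library against the summed RPKM of 10 alveolar type 2 markers (log axis). Day 30 replicate 3 lies alone at 1293 RPKM of markers with Scd1 at 39.7 and Fasn at 9.84; pneumonectomy libraries, with 40.4 to 94.2 RPKM of markers, have Scd1 at 9.12 to 9.28.

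At day 30 most of the sterol enzymes tested, 10 of 16, were above sham. Of 29 members 10 rose, none fell and 19 were not called, against 14.9% of all genes higher and 13.9% lower, and all 10 were sterol enzymes. Their median log2 difference over the 16 tested was 0.43, against 0.09 over all members and 0.00 over all genes. Mvd and Sqle, among the 10 that rose, again entered the test only through the bleomycin libraries. On the scale as deposited the split was 13 and 0, with the median gene at 0.11. Cyp51 was higher by 1.29 ± 0.24 (adjusted p = 0.0026), Mvd by 1.05 ± 0.13, Sqle by 0.81 ± 0.17, Fdps by 0.66 ± 0.16, Pmvk by 0.64 ± 0.12, Dhcr7 by 0.60 ± 0.15, Nsdhl by 0.46 ± 0.11, Hmgcs1 by 0.40 ± 0.13, Ebp by 0.35 ± 0.09 and Fdft1 by 0.31 ± 0.09. Without sham replicate 2 the calls of Cyp51, Mvd and Pmvk held, at 0.68, 0.78 and 0.52, and the other 7 were lost, with Sqle at 0.42, Fdps at 0.39, Dhcr7 at 0.38, Nsdhl at 0.27, Ebp at 0.22, Fdft1 at 0.16 and Hmgcs1 at 0.15. The Hmgcs1 call was also lost with no filter (0.43), with these groups alone (0.40) and without day 30 replicate 1, 2, 3 or 4 (0.35 to 0.42). Fdft1 shares 17.2% of its 50-base stretches with Ctsb, which lay at 93.4 to 112 RPKM at day 30 and 74.5 to 77.4 in sham. The part of Ctsb in the Fdft1 rise was not tested. Sc5d and Hsd17b7 overlapped sham in their libraries and were not called. Stard4 (0.02 ± 0.13), Insig1 (-0.14 ± 0.19), Srebf1 (0.08), Srebf2 (-0.07) and Scap (0.03) were not called. Both comparisons of bleomycin with sham share the sham libraries, so their directions are not independent.

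Other genes of these pathways, in lists chosen with results of these data known, did not move in a single direction. Of 27 further sterol and fatty acid synthesis genes 22 were tested, and at day 14 after bleomycin 6 rose and 8 fell against sham (median -0.16), against 31.6% of all genes higher and 31.5% lower, so these shares lie near the background. Hsd17b12, a reductase of fatty acid elongation, rose by 0.71 ± 0.09, whereas Mbtps1, the protease that makes the first cut in SREBP, fell by 0.83 ± 0.06 and Insig2, the relative of Insig1, by 0.79 ± 0.09. Mbtps1 was also lower than after pneumonectomy, by 0.83 ± 0.05 on the main scale and 0.35 as deposited. After pneumonectomy 6 of the 22 rose and 3 fell, against 21.5% and 20.8% of all genes, with Acsl3, a fatty acid activating enzyme, higher by 0.89 ± 0.15 and Mid1ip1, a partner of acetyl-CoA carboxylase, by 0.73 ± 0.12.

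Of 21 genes of sterol uptake, transport, esterification and efflux, 7 rose and 6 fell at day 14 after bleomycin, where 31.6% of all genes were higher and 31.5% lower. After pneumonectomy 8 rose and none fell, where 21.5% of all genes were higher and 20.8% lower. Scarb1, a receptor for high-density lipoprotein, rose by 3.73 ± 0.28 to 14.9 RPKM at day 14 and fell back by 3.44 ± 0.22 to 1.09 at day 30. Cyp27a1, which makes 27-hydroxycholesterol, fell by 3.16 ± 0.16, from 14.4 to 1.85 RPKM, and rose again by 2.34 ± 0.13. Lrp1, a receptor for lipoprotein remnants, fell by 1.56 ± 0.16. After pneumonectomy Ch25h, cholesterol 25-hydroxylase, rose by 2.85 ± 0.39, Cyp7b1, an oxysterol hydroxylase, by 1.98 ± 0.21 and Gramd1b, which carries sterol from the plasma membrane, by 1.77 ± 0.21. At day 30 Abcg1, a sterol exporter, was 2.69 ± 0.47 higher than in sham. Endothelial and macrophage markers moved with these groups as given above, and their part in these values was not tested.

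Of 18 genes of triglyceride storage and lipid droplets, 15 were tested, and 6 rose and 5 fell at day 14 after bleomycin, against the same 31.6% and 31.5% of all genes. Cd36, a fatty acid receptor that endothelium and macrophages also express, rose by 5.95 ± 0.61 to 133 RPKM and fell by 4.67 ± 0.49 to day 30. Lipe, hormone-sensitive lipase, rose by 2.35 ± 0.15, and Plin3, a lipid droplet coat protein, fell by 0.99 ± 0.09. After pneumonectomy 6 rose and 1 fell, against 21.5% and 20.8% of all genes. The gene that fell was again Plin3, by 0.75 ± 0.09 (adjusted p = 0.00011), and Gpam and Lpin1, enzymes of glycerolipid synthesis, rose by 0.85 ± 0.15 and 0.79 ± 0.13. At day 14 after bleomycin Gpam and Lpin1 lay lower than after pneumonectomy, by 1.74 ± 0.13 and 1.42 ± 0.11. At day 30 Plin2, the main droplet coat protein, and Fabp5, a fatty acid carrier, were higher than in sham by 1.06 ± 0.17 and 2.31 ± 0.37, and Dgat2, which makes triglyceride, was lower by 1.43 ± 0.27.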

How the data were processed

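RNA sequencing libraries of lung fibroblasts (sham n = 2, bleomycin day 14 n = 3, bleomycin day 30 n = 5, pneumonectomy day 14 n = 3) were used as deposited. The authors deposited RPKM per gene on mm10 (GRCm38), per the file headers and the submitters' processing notes. What aligner, counter and annotation they used is not given in the sources used here. RNA input was 200 ng per library, per the labels' protocols. Read counts were not used here, so no count model was fitted.

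Genes reaching 1 RPKM in 2 or more libraries were kept (12938, among them 29 of 31 members). Libraries were scaled by a trimmed mean of log ratios (TMM-like, 30% of ratios and 5% of levels trimmed), 0.1 was added and log2 taken, so that changes of low genes are understated. All 13 libraries entered 1 limma model (limma 3.58.1, R 4.3.3, empirical Bayes, trend, robust) with 5 contrasts, Benjamini-Hochberg adjustment over all genes kept, called at 0.05, two-sided. The model was tested on simulated data. Because sham has 2 libraries, its contrasts assume that sham varies like the other groups. Depth came from values under 0.03 RPKM: 78.5% to 83.3% of them were whole reads within 0.02, and a read in a 2-kilobase gene was worth 0.0025 to 0.0074 RPKM. These limits cover counting error only.

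Members and lists were chosen with earlier results of these data known. Per-library values are printed for members called with a log2 change of at least 1 and a mean of 5 RPKM or more in the group where they are higher, for Srebf1, Srebf2, Scap and Insig1, and, chosen after their values were seen, for Sqle, Mvd, Pmvk, Stard4, Nsdhl, Ebp, Scd2 and Fads2 in the groups compared. Of each other list, up to 3 called genes with the smallest p per comparison are named, except where stated; some genes of these lists enter the counts but are not reported here by name. Overlaps with other genes were counted as shared 50-base stretches of GENCODE M21 exons. Alternatives were the pseudocount (1, 0.01), no filter or 5 RPKM, 2 other scalings, limma without trend, the compared groups alone, the replicate number as a block, and leaving out each library.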

Additional observations from a re-analysis of the deposited data

Results flagged for a closer look

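In the 5 day 30 libraries, 3 values stood apart from their group by Dixon's criterion, among 31 members examined, where chance flags about 1 in 20. Scd1 was 39.7 RPKM and Fasn 9.84 RPKM in replicate 3, the library with alveolar type 2 markers at 1293 RPKM. Srebf2 was 8.89 RPKM in replicate 2, below 9.42 to 9.58 in the other 4.

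Against sham, Insig1 and Fads2 were called in opposite directions in the 2 injuries at day 14, and the difference itself was tested. Bleomycin minus pneumonectomy was -1.60 for Insig1 (adjusted p = 1.1e-05, limma, libraries not overlapping) and -0.92 for Fads2 (adjusted p = 3e-06). Against sham, the Fads2 fall after bleomycin was lost on the scale as deposited (-0.05), and its libraries overlapped with sham. The Insig1 rise after pneumonectomy was lost on that scale (0.46) and without sham replicate 2 (0.47). For either gene, the opposite directions against sham thus rest on a call that did not hold in every alternative.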

How the results depend on the processing

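Of the member calls, 10 of 19 (bleomycin day 14 against sham), 4 of 15 (pneumonectomy against sham), 8 of 19 (bleomycin against pneumonectomy), 8 of 15 (day 30 against day 14) and 0 of 10 (day 30 against sham) held in every alternative that tested them. The 78 called results of members gave 952 unchanged, 150 weaker and 5 reversed values over 1107 alternatives. The 67 results of members not called gave 921 unchanged (among them most of 74 changes of sign, which count as unchanged while not called), 42 newly called and 4 called the other way over 967.

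All reversals were in bleomycin against pneumonectomy on the scale as deposited: Fdft1 0.11, Hsd17b7 0.030, Srebf1 0.017, Scap 0.17 and Elovl6 0.11, called lower in the main fit, and Hmgcs1 0.32, Tm7sf2 0.41, Scd2 0.35 and Acly 0.29, not called there. A shift of all genes by the scale is what this alternative makes.

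With genes of at least 5 RPKM, which tests 15 members, 10, 8, 12 and 5 members were called in bleomycin day 14 against sham, pneumonectomy against sham, bleomycin against pneumonectomy and day 30 against sham. All genes called then fell from 8165 to 3964, 5475 to 2703, 9166 to 4370 and 3728 to 1899, and from 7689 to 3783 in day 30 against day 14, since fewer were tested. Fitted alone, pneumonectomy against sham gave 7 members and 3350 genes. Leaving out 1 library gave 5 to 17 members there (3393 genes without sham replicate 2) and 4 to 12 in day 30 against sham (1788 and 2333 genes without sham replicate 2 and 1); the cause was not tested.

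With the replicate number as a block, 14 members were called in bleomycin day 14 against sham (6713 genes) and 11 in day 30 against day 14 (5983 genes). In day 30 against sham 0 members were called (370 genes by limma, 3728 without the block). Deviations from the group means of same-numbered libraries had correlations of -0.13 to 0.14, against -0.22 to 0.20 for differently numbered ones. With 2 sham libraries their deviations mirror each other. The check thus cannot show whether same-numbered samples share more than a number. No paired analysis was possible for pneumonectomy because its columns carry no number. Depth was no limit for the members.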
